A study of Mus musculus with 6 samples.

Results

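The collagen genes of the mouse testis were compared between whole testes of Control mice and of mice with a deletion of Rnu11, the gene of the small nuclear RNA U11. The genes were chosen by symbol alone, as every gene named Col, a number, a and a number, which gave 44 of the 55353 genes listed for each library. RNA was profiled at postnatal day 14 in 3 Control testes and 3 testes of Rnu11 mutant animals, called Rnu11 cKO, in which the deletion was conditional. U11 is part of the minor spliceosome, the machinery that cuts out a small, distinct class of introns. All 6 samples were whole testis at the same age, and ribosomal RNA had been removed from the total RNA before sequencing. The sources used here do not give the Cre line, the deleted cell types or the alleles carried by the controls. Values are in TPM, a transcript's share of its library after scaling by length, and can therefore be compared between genes. Because whole organs were sequenced, fewer cells of a type and less RNA per cell cannot be told apart.

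Collagens are secreted proteins in which glycine recurs at the first place of each residue triplet, so that 3 chains can wind into a triple helix. Fibrillar collagens assemble into long fibres that give the interstitium and the tubule wall their tensile strength. Basement membrane collagens instead build the sheet on which epithelia rest, in the testis the lamina beneath Sertoli cells and spermatogonia, to which both Sertoli cells and peritubular myoid cells contribute. By textbook class the 44 genes comprised 8 basement membrane collagens (the Col4 chains, Col15a1 and Col18a1), 11 fibrillar collagens, 9 fibril-associated collagens, 6 collagen VI chains, 4 transmembrane collagens, 3 short chain network collagens, the anchoring fibril gene Col7a1, and Col26a1 and Col28a1.

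The classes also differ in gene structure, in the share of their coding exons that are 54 bases long. The exons below are all of that length, which is rare in the basement membrane genes, so they do not typify that class. In the GENCODE M21 annotation of GRCm38, exons of exactly 54 bases made up 42.9% to 56.9% of the internal coding exons of the 11 fibrillar genes. Among the 8 basement membrane genes the share was 2.22% to 7.69%. Of the 305 exons of 54 bases in fibrillar genes, 304 began with a whole glycine codon (GGN), as did 14 of the 16 in basement membrane genes. The exons shown are the first of this length in 3 fibrillar and 3 basement membrane genes that the results turn on, written 5′ to 3′ on the coding strand, with in-frame glycine codons in capitals. They lie at chr11:94939904-94939957 (plus strand, Col1a1), chr1:45325360-45325413 (plus strand, Col3a1), chr2:27965251-27965304 (plus strand, Col5a1), chr8:11245211-11245264 (minus strand, Col4a1), chr1:82651254-82651307 (plus strand, Col4a3) and chr1:82528752-82528805 (minus strand, Col4a4).
Col1a1 exon 8: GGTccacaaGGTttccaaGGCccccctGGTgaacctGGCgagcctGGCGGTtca
Col3a1 exon 6: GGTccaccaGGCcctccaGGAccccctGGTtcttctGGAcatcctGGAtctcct
Col5a1 exon 15: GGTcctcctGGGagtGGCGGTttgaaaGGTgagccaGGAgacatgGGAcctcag
Col4a1 exon 7: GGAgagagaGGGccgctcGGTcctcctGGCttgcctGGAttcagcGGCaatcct
Col4a3 exon 7: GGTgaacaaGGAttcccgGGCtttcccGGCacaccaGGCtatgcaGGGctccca
Col4a4 exon 14: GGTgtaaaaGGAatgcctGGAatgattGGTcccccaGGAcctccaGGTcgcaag
All 6 exons open on glycine and repeat it in register, which makes each a cassette of whole Gly-X-Y repeats. The exons of Col1a1 and Col5a1 also hold a pair of adjacent glycine codons.

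Every collagen gene was above 0 TPM in all 6 libraries, and 29 of the 44 had a mean of at least 1 TPM and were tested. Col4a1 had the highest mean, at 111 TPM. Next came Col1a2 at 82.4 TPM, Col3a1 at 81.3 TPM, Col18a1 at 69.3 TPM, Col1a1 at 59.8 TPM and Col6a1 at 54.5 TPM. This order holds for gene totals. The coding isoform that spans the Col4a1 gene, Col4a1-201, had 41.9 TPM, below Col1a2-201 at 70.6 TPM. Col1a2 and Col3a1 lay far closer to each other than the spread of either, and so did Col5a2 and Col6a4, both at 7.45 TPM. Of the 13 collagens at 10 TPM or more, 6 were basement membrane, 4 fibrillar and 3 collagen VI genes. The 15 genes under 1 TPM had means from 0.0299 TPM for Col19a1 to 0.930 TPM for Col8a2. They included some best known from cartilage or skin, such as Col2a1, Col11a1, Col9a1 and Col7a1. Other cartilage collagens were above that limit, such as Col10a1 at 1.77 TPM and Col11a2 at 1.07 TPM.

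**Figure D1:**
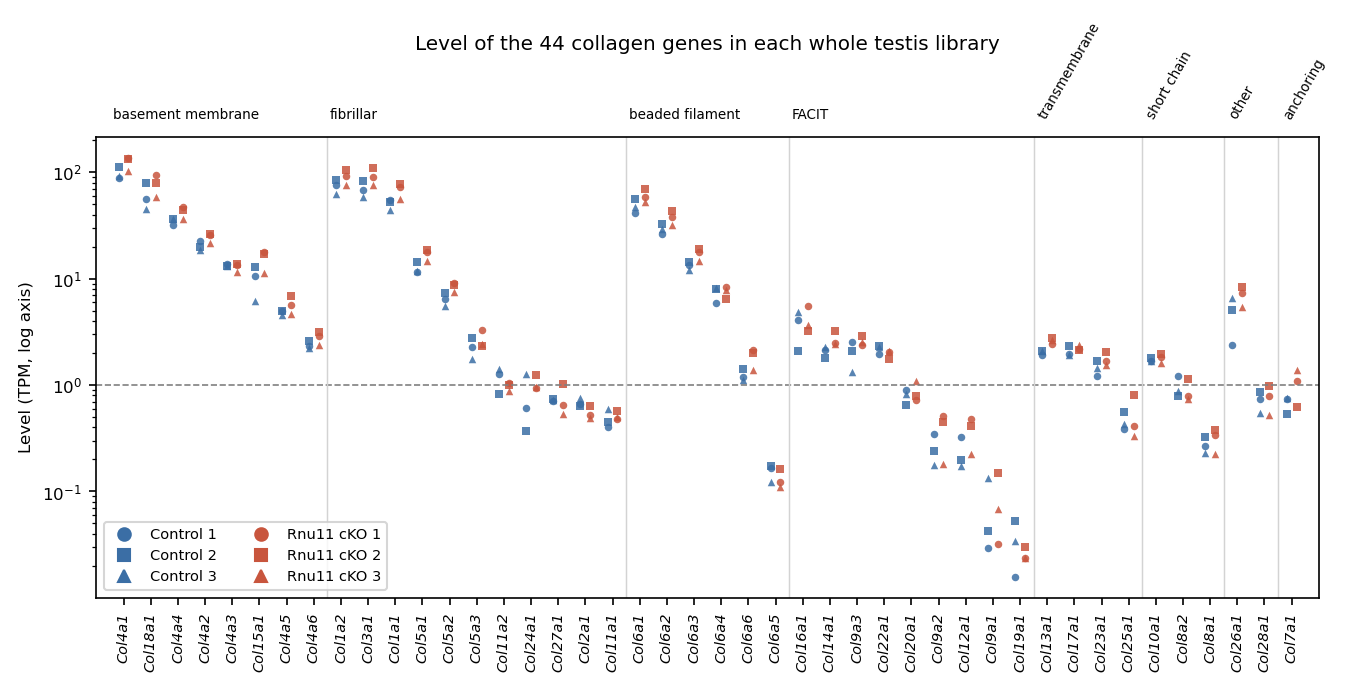
Level of each of the 44 collagen genes in each library, in TPM on a log axis, by class and in order of mean level within a class; blue symbols are the 3 Control and red symbols the 3 Rnu11 cKO libraries, and the dashed line is the 1 TPM limit for testing. The levels run from 0.0299 TPM (mean of Col19a1) to 111 TPM (mean of Col4a1), and the red and blue ranges overlap for most genes.

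Most tested collagens had a higher mean in the mutants, by a small amount, and none passed the test. In limma fits over all genes, 26 of the 29 tested collagens were higher in the mutants, against 66.4% of the 17959 genes tested. Their median difference in log2(TPM + 1), mutant minus control, was 0.28, beside 0.09 over all genes tested. No collagen was called at an adjusted p under 0.05, where 0.0278% of all genes were called, and the smallest adjusted p of a collagen was 0.294. At an unadjusted p under 0.05 limma gave 6 collagens, all higher in the mutants (Col5a1, Col1a1, Col5a2, Col6a3, Col6a2 and Col4a4), and none lower. The corresponding shares of all genes were 12.1% higher and 3.98% lower. Every mutant lay above every control for 7 collagens (Col1a1, Col5a1, Col5a2, Col4a4, Col6a3, Col13a1 and Col14a1), as for 14.5% of all genes tested. No tested collagen had every mutant below every control, as 5.77% of all genes did.

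These counts depended on single libraries and on the scaling. Mutant 3 was the lowest mutant for 22 of the 29 collagens, as for 61.2% of all genes, and control 2 was the highest control for 19, as for 45.4% of all genes. Mutants 1 and 2 both exceeded every control for 19 collagens, beside 37.8% of all genes tested. Mutant 3 exceeded every control for 9 collagens, beside 22.2% of all genes. Without mutant 3 the collagens at an unadjusted p under 0.05 and higher numbered 14 by limma, beside 20.4% of all genes in that fit. There were 0 without mutant 1 (5.86% of all genes) or mutant 2 (4.79%). Leaving out control 2 gave 10 (14.8%), leaving out control 1 gave 2 (5.90%) and leaving out control 3 gave 1 (5.15%). Nuclear protein-coding genes held 25.3% to 27.4% of the TPM of a control, 29.3% and 31.0% in mutants 1 and 2, and 26.6% in mutant 3. Scaling by median ratios moved the median of all genes tested to −0.0017 and that of the collagens to 0.18. Scaling to protein-coding TPM moved them to −0.02 and 0.16. Under both scalings 23 collagens were higher and 6 lower in the mutants, while 49.7% and 45.7% of all genes were higher. Col6a4, Col10a1 and Col17a1 were the genes whose direction turned under both.

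**Figure D2:**
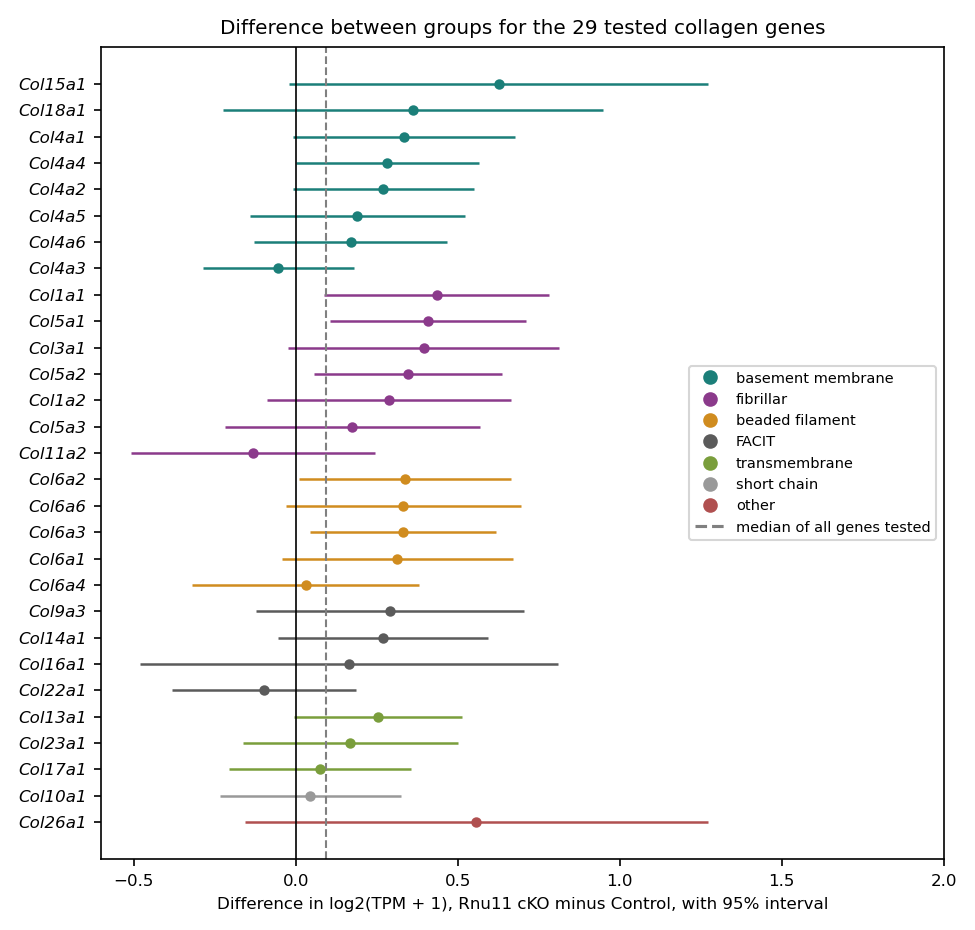
Difference in log2(TPM + 1) between the groups, Rnu11 cKO minus Control, for the 29 tested collagens, as points coloured by class with limma's 95% intervals; the solid line is 0 and the dashed line the median of all genes tested, 0.09. The points of 26 genes lie to the right of 0, and Col4a3, Col11a2 and Col22a1 lie to the left.

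Among the chains of the general basement membrane network, Col4a1 and Col4a2 had higher means in the mutants with overlapping groups. Col4a1 encodes the most widespread collagen IV chain (GRCm38, chromosome 8, 11198423 to 11312826, minus strand) and measured 88.3, 112 and 93.4 TPM in controls 1 to 3 and 136, 133 and 104 TPM in mutants 1 to 3. Mutants 1 and 2 were above all controls and mutant 3 was below control 2. Its partner Col4a2 (chromosome 8, 11312805 to 11449287, plus strand) measured 22.4, 19.9 and 18.5 TPM in the controls and 26, 26.5 and 21.5 TPM in the mutants, where mutant 3 lay between controls 1 and 2. The differences in log2(TPM + 1) were 0.33 ± 0.14 (SE) for Col4a1 and 0.27 ± 0.12 (SE) for Col4a2, with limma adjusted p of 0.315 and 0.316.

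Col4a3, Col4a4 and Col4a5 encode the chains of another network found in mature basement membranes, including that of the seminiferous tubule, and differed in the sign of their mean difference. Col4a4 (chromosome 1, 82448423 to 82586849, minus strand) measured 32.2, 36.2 and 36.5 TPM in the controls and 47.6, 44.5 and 36.8 TPM in the mutants. No mutant was below a control, although mutant 3 and control 3 nearly touched, and the difference was 0.28 ± 0.12 on the log2 scale (limma adjusted p = 0.310). Col4a3 (chromosome 1, 82586921 to 82722059, plus strand) measured 13.8, 13.3 and 13.1 TPM in the controls and 13.4, 13.9 and 11.5 TPM in the mutants. Its groups overlapped, with mutant 3 the lowest library and mutant 2 the highest, and its difference of −0.05 ± 0.10 (SE) was the only negative value among the basement membrane collagens. Under protein-coding scaling this difference was −0.18, at an unadjusted p of 0.0420 and an adjusted p of 0.289 (limma), and without mutant 3 it was 0.024. The X-linked chains Col4a5 and Col4a6, which form a further network, had means of 4.85 ± 0.208 and 2.39 ± 0.173 TPM (SD, n = 3) in the controls and 5.74 ± 1.16 and 2.82 ± 0.414 TPM in the mutants. Both overlapped between the groups.

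The ratio of chains within a library does not depend on the library's scaling, and it differed most for Col4a4 and Col4a3. Col4a4 over Col4a3 was 2.34, 2.72 and 2.78 in the controls and 3.55, 3.21 and 3.21 in the mutants, so every mutant lay above every control. On the log2 scale the ratio differed by 0.35, or by 0.27 to 0.40 with 1 library left out. Of 6 pairs of chains that share a trimer or a promoter region, all chosen with levels of these genes known, Col1a1 over Col1a2 was the other pair without overlap. It measured 0.719, 0.631 and 0.709 in the controls and 0.798, 0.738 and 0.747 in the mutants. An exact two-sided permutation test gave 0.1 for each of these pairs, the smallest p that 3 against 3 allows, and 0.30 after adjustment over the 6 pairs. Col4a1 over Col4a2 averaged 4.88 ± 0.872 (SD, n = 3) in the controls and 5.01 ± 0.198 in the mutants. That pair and Col4a5 over Col4a6, Col5a1 over Col5a2 and Col6a1 over Col6a2 overlapped between the groups.

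**Figure D3:**
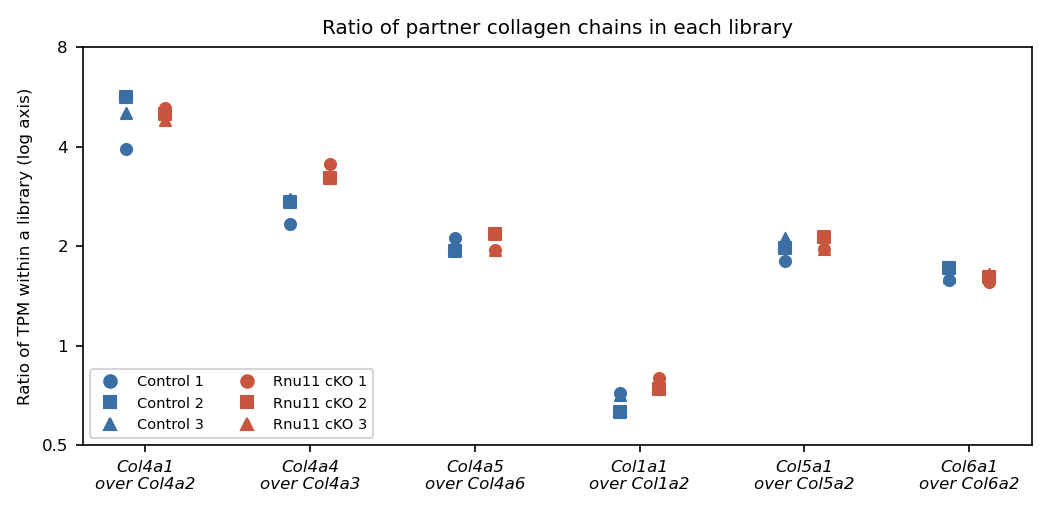
Ratio of the TPM of 2 collagen chains within each library, on a log axis, for 6 pairs; blue symbols are the 3 Control and red symbols the 3 Rnu11 cKO libraries. The red symbols are all above the blue ones for Col4a4 over Col4a3 (3.21 to 3.55 against 2.34 to 2.78) and for Col1a1 over Col1a2, and overlap with them in the other 4 pairs.

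The collagen IV genes lie in head-to-head pairs. Col4a1 and Col4a2 share 22 bases at their starts on chromosome 8, so a read of these bases could be assigned to either unless strand was used. The starts of Col4a4 and Col4a3 are 72 bases apart on chromosome 1, and those of Col4a5 and Col4a6 are 1309 bases apart on the X chromosome. The Col4a3 start used is that of Col4a3-203, annotated as retaining an intron, with 6.58% of the gene's TPM. The coding isoform Col4a3-201, with 92.8%, starts further downstream at 82586976, so the segment below stops short of that start. The segment between the annotated starts of Col4a4 and Col4a3 is shown because it lies upstream of both genes, whose mean differences had opposite signs (RefSeq, GRCm38.p6, chr1:82586850-82586920, plus strand, in lower case with no letters marked).
Col4a4-Col4a3 segment: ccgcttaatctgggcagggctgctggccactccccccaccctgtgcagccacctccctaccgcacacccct
Its bases were 69.0% G or C. It held none of the 3 strings searched on both strands, the GC box GGGCGG, the CCAAT box CCAAT and the TATA box TATAAA, none of which contains another. RefSeq promoter windows of 300 bases (250 before and 50 after a start) were at hand for 35 of the 44 collagen genes, in 38 windows. GGGCGG occurred in 60.5% of these windows and in 35.7% of all 32851 windows, CCAAT in 34.2% and 37.4%, and TATAAA in 13.2% and 13.6%. The median G and C content was 59.8% in the collagen windows and 52.7% in all windows. TATAAA was in 0 of 8 basement membrane and in 2 of 8 fibrillar windows.

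The remaining basement membrane genes, Col18a1 and Col15a1, encode proteoglycan collagens of the basement membrane zone, whose cut ends are endostatin and restin. Col18a1 (chromosome 10, 77052178 to 77166548, minus strand) measured 56.7, 80.3 and 45.4 TPM in the controls and 95.6, 79.2 and 58.6 TPM in the mutants. Col15a1 (chromosome 4, 47208161 to 47313167, plus strand) measured 10.6, 12.9 and 6.13 TPM in the controls and 17.7, 17.2 and 11.4 TPM in the mutants. Both spread widely within each group and overlapped, since control 2 exceeded mutant 3 in each. Col15a1 had the largest difference of the 29 genes, 0.63 ± 0.27 (SE), and its adjusted p was 0.315 by limma. Without control 3, its lowest library, the difference was 0.35 and the fourth largest. The coding isoform Col15a1-202, with 70.9% of the gene's TPM, differed by 0.41 ± 0.18 (SE). For Col18a1 the difference was 0.36 ± 0.25, with a limma adjusted p of 0.459, and it was 0.17 without control 3, 0.20 without mutant 1, 0.55 without mutant 3 and 0.58 without control 2. In all, 7 of the 8 basement membrane collagens had a higher mean in the mutants, with a median log2 difference of 0.28, or 0.17 and 0.14 under median-ratio and protein-coding scaling. Only Col4a4 was at an unadjusted p under 0.05 by limma, where 12.1% of all genes were higher in the mutants. Under median-ratio and protein-coding scaling 0 basement membrane collagens were higher at such a p, beside 8.27% and 6.83% of all genes.

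Among the fibrillar collagens Col1a1, Col5a1 and Col5a2 had every mutant above every control, as 14.5% of all genes did, and none passed the test. Col1a1 encodes the more abundant chain of the type I protein trimer, although its RNA was below that of Col1a2 in every library. Col1a1 (chromosome 11, 94936224 to 94953042, plus strand) measured 54.7, 53.1 and 44 TPM in the controls and 73.2, 77.1 and 56.8 TPM in the mutants. Col1a2, its partner (chromosome 6, 4504814 to 4541544, plus strand), measured 76.0, 84.2 and 62.0 TPM in the controls and 91.7, 105 and 76.0 TPM in the mutants. All mutants exceeded all controls for Col1a1, and for Col1a2 mutant 3 was below control 2. The log2 differences were 0.43 ± 0.15 (SE) for Col1a1 and 0.29 ± 0.16 for Col1a2, with limma adjusted p of 0.294 and 0.375.

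Col3a1 forms the type III fibres of pliable tissue (chromosome 1, 45311538 to 45349706, plus strand) and measured 68.9, 82.2 and 58.9 TPM in the controls and 91.0, 111 and 75.7 TPM in the mutants. Mutants 1 and 2 exceeded every control, mutant 3 did not, and the log2 difference was 0.39 ± 0.18. The type V chains Col5a1 (chromosome 2, 27886425 to 28039514, plus strand) and Col5a2 (chromosome 1, 45374321 to 45503282, minus strand) start and limit the growth of collagen fibrils. Col5a1 measured 11.7, 14.4 and 11.8 TPM in the controls and 17.9, 18.6 and 14.7 TPM in the mutants. Col5a2 measured 6.48, 7.29 and 5.58 TPM in the controls and 9.11, 8.72 and 7.53 TPM in the mutants. Every mutant was above every control for both, with log2 differences of 0.41 ± 0.13 and 0.35 ± 0.12 (SE). Col5a1 had the smallest unadjusted p of the collagens, and the limma adjusted p was 0.294 for both genes. Under protein-coding scaling Col1a1 and Col5a1 were the collagens still higher at an unadjusted p under 0.05 by limma.

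The third type V chain, Col5a3, and the cartilage chain Col11a2 were low. Col5a3 averaged 2.26 ± 0.508 TPM in the controls and 2.67 ± 0.515 TPM in the mutants, and Col11a2 averaged 1.18 ± 0.309 and 0.973 ± 0.0831 TPM (SD, n = 3). Col11a2 had a lower mean in the mutants, at −0.13 ± 0.16 on the log2 scale. The other 4 fibrillar genes were under 1 TPM. Of these, Col2a1, the main cartilage collagen, had every mutant (0.495 to 0.629 TPM) below every control (0.631 to 0.757 TPM), with a gap far smaller than the spread within either group. Over the 7 tested fibrillar genes, 6 had a higher mean in the mutants, and the median log2 difference was 0.35, or 0.25 and 0.22 under the same scalings. By limma 3 were at an unadjusted p under 0.05, all higher, beside 12.1% of all genes. Under median-ratio and protein-coding scaling these counts were 3 and 2, beside 8.27% and 6.83% of all genes.

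The levels of the basement membrane and fibrillar classes overlapped between the groups, and so did their ratio. Summed over its 8 genes, the basement membrane class reached 231, 283 and 220.0 TPM in the controls and 345, 324 and 251 TPM in the mutants. The 11 fibrillar genes summed to 224, 247 and 189 TPM in the controls and 289.8, 327 and 237 TPM in the mutants. In each class mutant 3 was within the control range. The first sum over the second was 1.03, 1.14 and 1.16 in the controls and 1.19, 0.991 and 1.06 in the mutants. Its means, 1.11 ± 0.0705 and 1.08 ± 0.101 (SD, n = 3), differed by less than either spread. The medians of the log2 differences differed by −0.07, basement membrane minus fibrillar. With the 4 untested fibrillar genes included the sign turned, to 0.016.

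**Figure D4:**
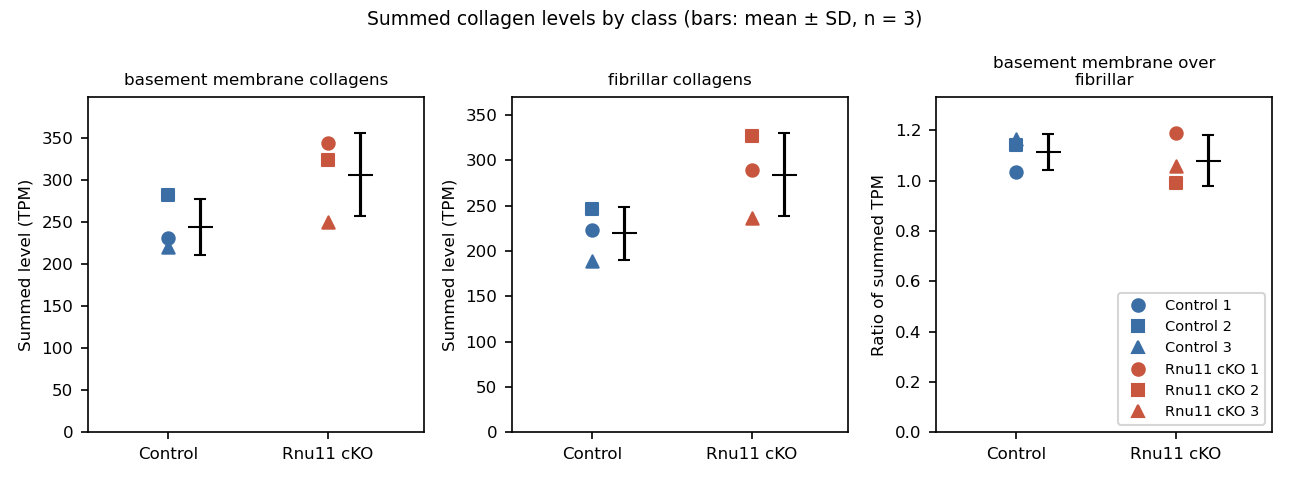
Summed TPM of the 8 basement membrane and the 11 fibrillar collagens, and the ratio of the first sum to the second, in each library; points are libraries, black bars the mean ± SD of 3, and all axes start at 0. In both classes mutant 3 lies within the control range, and the ratios of the groups overlap (1.03 to 1.16 in Control, 0.991 to 1.19 in Rnu11 cKO).

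Collagen VI forms beaded filaments that tie basement membranes to the matrix around cells, and its 3 main chains resembled one another. Col6a1 (chromosome 10, 76708792 to 76726168, minus strand) measured 41.8, 56.5 and 47.1 TPM in the controls and 59.0, 69.9 and 52.4 TPM in the mutants. Col6a2 (chromosome 10, 76595762 to 76623630, minus strand) measured 26.5, 33.0 and 29.1 TPM in the controls and 38.0, 43.4 and 31.8 TPM in the mutants. Mutants 1 and 2 exceeded every control in both genes, and mutant 3 was below control 2. Col6a3 (chromosome 1, 90765923 to 90843971, minus strand) measured 13.6, 14.3 and 12.2 TPM in the controls and 17.7, 19.0 and 14.6 TPM in the mutants, with no overlap. The log2 differences were 0.31 ± 0.15, 0.34 ± 0.14 and 0.33 ± 0.12 (SE), and the limma adjusted p were 0.334, 0.307 and 0.295. Col6a4 and Col6a6, which can take the place of the Col6a3 chain, averaged 7.37 ± 1.22 and 1.25 ± 0.160 TPM in the controls and 7.53 ± 1.02 and 1.85 ± 0.395 TPM in the mutants. Both overlapped between the groups, and Col6a5 was under 1 TPM. In all, 5 of 5 tested chains had a higher mean in the mutants, or 4 of 5 under either scaling, and the median log2 difference was 0.33.

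The 9 other tested collagens had means of 1.6 to 5.86 TPM. Col26a1, known for its expression in testis and ovary, had the largest difference after Col15a1, 0.56 ± 0.30 (SE), on levels of 4.69 ± 2.12 TPM in the controls and 7.03 ± 1.48 TPM in the mutants (SD, n = 3). Its controls ranged from 2.39 to 6.58 TPM, which spans the lowest mutant at 5.41 TPM. Without control 1, its lowest library, the difference was 0.22. The tested coding isoform Col26a1-202 differed by 0.22 ± 0.18 (SE). Col26a1-204, annotated as noncoding and with 38.0% of the gene's TPM, was at 0 in control 1 and 4.35 TPM in control 3. Among the fibril-associated collagens, which coat fibrils without forming them, Col14a1 averaged 2.08 ± 0.258 TPM in the controls and 2.72 ± 0.448 TPM in the mutants, with every mutant above every control. Col16a1, Col9a3 and Col22a1 overlapped, with log2 differences of 0.17 ± 0.27, 0.29 ± 0.18 and −0.10 ± 0.12. The transmembrane collagen Col13a1, a component of cell adhesion sites, averaged 2.04 ± 0.112 and 2.62 ± 0.178 TPM with no overlap. Col17a1, the collagen of hemidesmosomes, and Col23a1 had log2 differences of 0.07 ± 0.12 and 0.17 ± 0.14, and Col10a1, best known from growth plate cartilage, of 0.05 ± 0.12. All 3 overlapped between the groups, and adjusted p over these 9 genes were 0.315 to 0.859 by limma.

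In the authors' deposited table, which holds a log2 fold change per gene by a method that the sources used here do not give, 25 of the 29 tested collagens were above 0, 3 below 0 and 1 at 0. Its median over these genes was 0.30. That table rests on the same 6 libraries, and its share above 0 and its median over all genes were not computed.

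At the isoform level the differences were again small. In the deposited isoform values 224 isoforms matched the 44 genes, and 51 isoforms of 25 genes had a mean of at least 1 TPM. Of these 46 had a higher mean in the mutants, and the share of all isoforms that were higher was not computed. The median log2 difference of the 51 was 0.22, beside 0.08 over all 44197 isoforms tested. None was called by limma, where 0.0136% of all isoforms were called, and the smallest adjusted p was 0.433. At an unadjusted p under 0.05 there were 5, all higher in the mutants, where 8.06% of all isoforms were higher and 3.18% lower. The count was 19 without mutant 3 (12.9% of all isoforms in that fit), 9 without control 2 (9.96%), 3 without control 1 (4.54%) and 2 without control 3 (4.64%). It was 0 without mutant 1 (5.02%) or mutant 2 (3.86%). The 5 isoforms were the coding isoforms Col1a1-201, Col4a1-201 and Col6a3-202 and the isoforms annotated as retaining an intron Col4a1-202 and Col1a1-203. Col4a1-201 measured 35.2, 39.4 and 35.7 TPM in the controls and 53.5, 47.1 and 40.5 TPM in the mutants, without overlap. Col1a1-201, which held 94.0% of its gene's TPM, measured 51.4, 50.2 and 40.8 TPM in the controls and 67.7, 73.2 and 54.1 TPM in the mutants. Again no mutant was below a control. Col6a3-202 measured 9.83, 11.6 and 9.33 TPM against 14.1, 14.6 and 11.4 TPM, and mutant 3 was below control 2. The retained-intron isoforms were low: Col4a1-202 measured 1.06, 1.97 and 1.61 TPM against 3.18, 4.42 and 1.88 TPM, with overlap, and Col1a1-203 measured 1.90, 1.46 and 1.58 TPM against 3.98, 2.31 and 2.07 TPM, without overlap. Isoforms annotated as noncoding or subject to decay made up 44.7% ± 5.72 (SD, n = 3) of Col4a1 in the controls and 44.3% ± 3.92 in the mutants. For Col1a2 this share was 12.8% ± 0.390 in the controls and 11.0% ± 0.940 in the mutants, with every mutant below every control. Col1a2 was the only gene without overlap among the 13 collagens of at least 10 TPM for which this share was read. How often other genes separate in this way was not computed. Col18a1 came mainly from its upstream start, with a mean of 52.6 TPM for Col18a1-202. Col18a1-205, from a start further downstream, had 13 TPM and Col18a1-201 had 2.50 TPM. The matched isoforms of Col5a1 summed to 57.3% of its gene value, so its isoform values are partial. Minor introns, the substrate of U11, were looked for among the collagen introns whose ends could be read from annotated transcripts. These were 25 of 2118 introns of at least 60 bases, in 15 genes, and 0 had minor intron sequences.

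The genes that fold, cut, bind and degrade collagen were examined as 6 lists. Of 77 partner genes 64 had at least 1 TPM, 58 of them had a higher mean in the mutants (66.4% of all genes), and their median log2 difference was 0.25. No partner gene was called by limma, and 24 were at an unadjusted p under 0.05, all higher, beside 12.1% of all genes. That count was 36 without mutant 3, 5 without mutant 2, 10 without mutant 1, 7 without control 1 and 6 without control 3, beside the shares of all genes given above for these fits. Under median-ratio and protein-coding scaling 53 and 52 of the 64 were higher, with medians of 0.18 and 0.16. Every mutant was above every control for 22 of the 64, beside 14.5% of all genes. From each list the 3 genes of smallest p are named, a choice that favours genes without overlap. Among folding and modifying enzymes 15 of 17 were higher, with a median of 0.23, or 0.10 under protein-coding scaling. Means are given for the controls and then for the mutants. Plod2, which hydroxylates lysines of the telopeptides, averaged 27.3 ± 4.69 TPM in the controls and 36.4 ± 2.91 TPM in the mutants. P4ha1, a prolyl hydroxylase subunit, averaged 13.3 ± 1.51 and 17.9 ± 2.68 TPM, and Ppib, a prolyl isomerase, averaged 61.2 ± 4.99 and 78.1 ± 11.5 TPM (SD, n = 3). Every mutant was above every control for these 3 genes. Among 9 processing and cross-linking genes 8 were higher, with a median of 0.20, or 0.09 under that scaling. Pcolce, which enhances cutting of procollagen, averaged 45.5 ± 8.04 and 67.2 ± 13.2 TPM, with overlap, while the procollagen protease Adamts2 (5.99 ± 0.191 and 7.55 ± 1.13 TPM) and the cross-linking oxidase Loxl2 (2.58 ± 0.101 and 3.31 ± 0.587 TPM) did not overlap.

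Partners of the basement membrane numbered 13 higher of 14 tested, with a median of 0.36 (0.23 under protein-coding scaling). By limma 8 were at an unadjusted p under 0.05, all higher, beside 12.1% of all genes. Sparc, a collagen-binding glycoprotein of basement membranes, was the most abundant of these 3, at 483, 624 and 507 TPM in the controls and 770.5, 863 and 655 TPM in the mutants. The laminin chains Lama1 and Lama3 averaged 12.2 ± 1.43 and 1.66 ± 0.288 TPM in the controls and 17.2 ± 3.03 and 2.97 ± 0.909 TPM in the mutants (SD, n = 3). None of these 3 genes overlapped between the groups. Partners of fibrils gave 10 higher of 11, with a median of 0.24, or 0.13 under that scaling. The fibril-coating proteoglycan Dcn averaged 56.0 ± 3.69 and 78.5 ± 15.5 TPM and Thbs1, a matricellular protein, 2.91 ± 0.511 and 3.98 ± 0.677 TPM, both without overlap, while Lum (1.05 ± 0.354 and 1.98 ± 0.646 TPM) overlapped. Receptors gave 5 higher of 6, with a median of 0.33, or 0.20 when so scaled. The collagen receptor kinases Ddr1 (38.8 ± 3.10 and 53.1 ± 7.56 TPM) and Ddr2 (8.13 ± 1.41 and 11.2 ± 1.34 TPM) and the collagen III receptor Adgrg1 (53.0 ± 6.04 and 75.9 ± 10.5 TPM) did not overlap. All 7 tested breakdown genes were higher, or 6 under protein-coding scaling, with medians of 0.37 and 0.23, among them the collagenase Mmp14 (28.7 ± 2.44 and 37.5 ± 6.02 TPM) and the inhibitors Timp2 (74.4 ± 8.78 and 104 ± 19.7 TPM) and Timp3 (27.5 ± 2.30 and 36.6 ± 6.74 TPM). Of these Timp2 overlapped. Adjusted p of the 18 genes named here were 0.294 to 0.342 by limma.

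Marker sums of several testis cell types also differed between the groups, and their part in the collagen differences was not tested. Rnu11, the deleted gene, measured 614, 576 and 550.3 TPM in the controls and 196, 393 and 203 TPM in the mutants, so every mutant was below every control and Rnu11 RNA was present in each mutant library. All 57 markers on 7 lists were above 0 TPM in every library. The 10 Sertoli cell markers all had higher means in the mutants and summed to 1438 to 1575 TPM in the controls and 2013 to 2519.6 TPM in the mutants. All 8 Leydig cell markers were higher, summing to 160.4 to 284 TPM and 295 to 449 TPM. Germ cell markers were lower for all 10, summing to 728 to 817 TPM in the controls and 513 to 622 TPM in the mutants. For the cells that lay down much of the fibrillar matrix, sums overlapped. Markers of peritubular myoid cells (6 of 8 higher) summed to 243 to 317 TPM and 289 to 339.8 TPM, and those of interstitial mesenchyme (6 of 6 higher) to 109 to 125.3 TPM and 125.2 to 157 TPM. Endothelial markers (7 of 8 higher, or 6 of 8 under protein-coding scaling, 28.8 to 35.3 and 29.6 to 41.0 TPM) and macrophage markers (7 of 7 higher, 37.2 to 56.5 and 52 to 74.1 TPM) overlapped too. Mutant 3, the lowest mutant in summed collagen (625 TPM, against 793 and 826 TPM), was also the lowest mutant on every list except germ cells, where it was the highest. The depth behind these values is unknown, since TPM keeps no record of it.

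**Figure D5:**
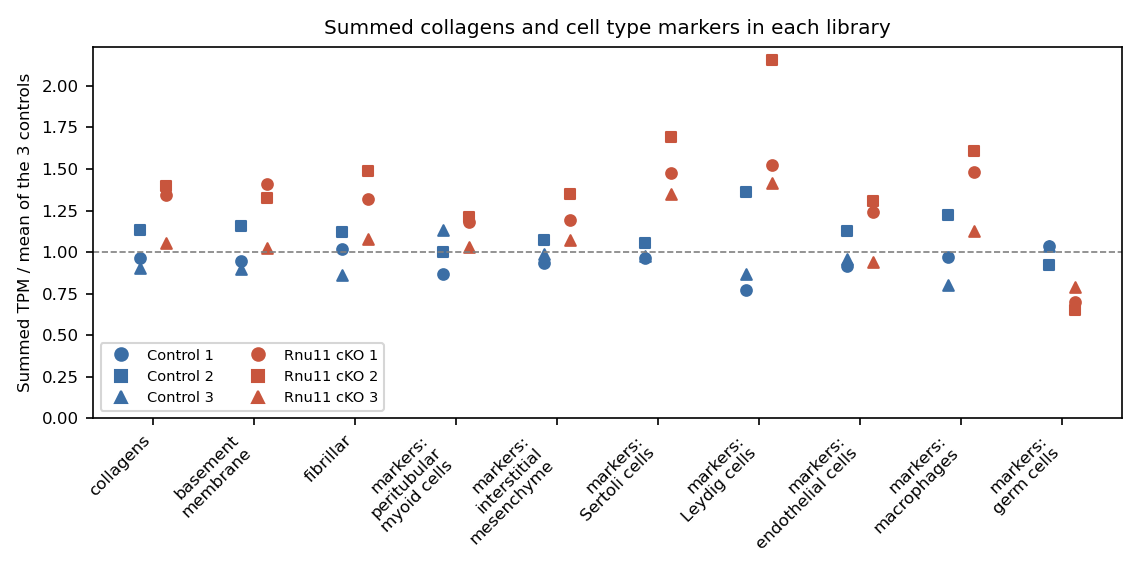
Summed TPM of all collagens, the basement membrane and fibrillar classes and 7 cell type marker lists in each library, divided by the mean of the 3 controls (dashed line); blue symbols are Control and red symbols Rnu11 cKO libraries. Sertoli and Leydig cell markers are higher in all mutants and germ cell markers lower in all mutants, while the collagen sums overlap through mutant 3.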

How the data were processed

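Whole testis RNA of 3 Control and 3 Rnu11 cKO testes was analysed, with genotype and replicate number from the labels. The labels do not say whether the testes of a group came from different animals. The submitters' processing notes name HISAT2 and the build GRCm38. The tool that made the TPM estimates is not named in the sources used here. For each library the authors deposited TPM of genes and of isoforms, without counts, so depth and counting error are unknown. Their table of the whole series holds mean TPM per group and a log2 fold change, per the file headers, and was used for description only. Nothing says that same-numbered libraries were paired, and p-values measure the spread between these samples.

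Genes (17959) and isoforms (44197) with a mean of at least 1 TPM entered limma 3.58.1 (R 4.3.3) as log2(TPM + 1), with eBayes and its trend. Tests were two-sided and adjusted by Benjamini-Hochberg over all of them, at 0.05. Differences on this scale understate changes of low genes. On simulated data with 17959 genes, 67% of a set shifted by 1 log2 unit were recovered, and 96% at 2 units. With 44197 simulated isoforms the shares were 25% and 75%. Both shifts exceed the largest collagen gene difference of 0.63, so recovery at the sizes seen here was not measured. The simulated noise was drawn separately for each gene or isoform, without shifts shared across a library. Other steps used Python 3.11.15, pandas 2.3.3, scipy 1.17.1 and matplotlib 3.10.9.

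All 44 symbols matched GENCODE M21, which gave positions, exons and isoform types. Members, classes, partner lists and marker lists were chosen with earlier results of these data known. Every tested collagen was named, each library's value was given at 10 TPM or more or at an unadjusted p under 0.05, and 3 tested genes per partner list and 5 isoforms were named by smallest p. Col2a1 and the Col18a1, Col4a1, Col1a2, Col15a1 and Col26a1 isoform values were named after their values were seen. The alternatives tried were a pseudocount of 0.1, a filter of 5 TPM or none, scaling by median ratios or to protein-coding TPM, no trend, a replicate block, narrower classes, an isoform filter of 0.5 TPM, and each library left out.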

Additional observations from a re-analysis of the deposited data

How the results depend on the processing

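In each alternative fit 0 collagen genes and 0 collagen isoforms were called by limma, and the smallest adjusted p of a collagen gene ran from 0.150 (without control 2) to 0.625 (without mutant 2). The median differences of the basement membrane and fibrillar classes stayed positive throughout. They were 0.19 to 0.37 and 0.26 to 0.43 with 1 library left out, 0.17 and 0.25 under median-ratio scaling, and 0.14 and 0.22 under protein-coding scaling. Their difference was −0.14 to −0.02 with 1 library left out and turned to 0.016 without a filter, which adds 4 fibrillar genes. Collagens at an unadjusted p under 0.05 and higher in the mutants (6) numbered 2 under protein-coding scaling and 0 to 14 with 1 library left out. The count with a higher mean (26) became 16 of 17 under a filter of 5 TPM, where fewer genes are tested, 37 of 44 without a filter, and 24 to 27 with 1 library left out. The fits with no trend, a replicate block or another filter leave each collagen's difference unchanged, so their values could not turn. With these included, 354 of 365 alternative values for single collagens kept their direction. Those that turned were Col6a4 (−0.067 and −0.091 under median-ratio and protein-coding scaling, −0.10 to 0.13 with 1 library left out), Col17a1 (−0.00037 and −0.019 under these scalings), Col10a1 (−0.027 and −0.045), Col16a1 (−0.11 to 0.36 with 1 library left out) and Col4a3 (−0.10 to 0.024). The cause was not tested. With the replicate number as a block, 11 collagen genes and 16 collagen isoforms were at an unadjusted p under 0.05 and higher, beside 14.8% of all genes and 9.73% of all isoforms, and the smallest adjusted p of a collagen gene was 0.194. The deviations of same-numbered libraries correlated at −0.07, 0.03 and 0.08 across genes, and those of differently numbered libraries at −0.16 to 0.12. With 3 libraries per group these values cannot decide whether libraries were paired. The largest collagen difference was 0.63 on the log2 scale, and the depth behind the values is unknown.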
